A study of Mus musculus with 18 samples.

Results

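The response to hypertonic medium was examined in mouse embryonic fibroblasts (MEFs) of strain 129sv/ev in which Nfat5 is knocked out, labelled NFAT5 knock-out 5.1 and called KO here. Arrays were grouped by their titles: 3 hypertonic KO arrays and 3 isotonic KO arrays, numbered 1, 2 and 4 on each side, or 6 of the 18 arrays of the series. The matching 6 arrays of the line labelled NFAT5 wild-type 5.4, called WT here, served as the comparison, and the 6 WT arrays given Torin1, an inhibitor of the kinase mTOR, entered only the shared estimate of spread. None of the KO cells and none of the WT arrays compared here received Torin1. Each genotype is a single labelled line, so a difference between KO and WT cannot be told apart from a difference between these lines that arose in other ways. Isotonic arrays carry 300 in their titles and hypertonic arrays 500, neither with a unit, and the labels used here give neither the time in hypertonic medium nor the solute. Total RNA was read on Affymetrix arrays, and values are deposited signals on the log2 scale, where a difference of 1 is a 2-fold change. Each change is hypertonic minus isotonic (n = 3 arrays per medium), given ± its limma standard error. That error pools the spread within all 6 groups of the series, so it can exceed the spread of the KO arrays alone. A gene was called higher or lower at a limma adjusted p below 0.05.

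Hypertonic medium draws water out of cells, which shrink and concentrate their ions, and they respond by importing or making small organic osmolytes such as inositol, betaine, taurine and sorbitol. NFAT5, also called TonEBP, is the transcription factor best known for switching on the transporters and enzymes of that response, together with several chaperones. Cells under hypertonic stress also activate stress kinases, DNA damage signalling and oxidative stress genes through other factors.

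The transcript of the targeted gene, Nfat5, stood at 9.83, 9.72 and 9.73 in isotonic KO arrays 1, 2 and 4 and at 10.13, 10.22 and 9.73 in hypertonic ones. Isotonic WT arrays read 10.13, 9.99 and 9.94, and hypertonic WT arrays 10.77, 10.46 and 10.18. The media overlapped in KO cells at array 4, with a change of 0.26 ± 0.16 (limma adjusted p = 0.259), a call that passed only when all number 4 arrays were left out. The probe set reads a transcript that a partial deletion can leave in place, so its level does not check the genotype. The isotonic KO array 1 carries the genotype label of the WT line, against its title. Over the tested genes it correlated with the other isotonic KO arrays at r = 0.995 and 0.979 and with the isotonic WT arrays at 0.935 to 0.942. All results are given with it as KO, and results without it are given where they differ. The labelled cell type was checked against fibroblast markers: the 11 markers tested of 12 averaged 11.83 to 12.12 in the isotonic and 11.59 to 11.98 in the hypertonic KO arrays, and Pdgfrb was the only one called (-0.25), a call lost after centring and when single KO arrays were left out.

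Of 15711 genes tested, 2030 (12.9%) were higher and 2704 (17.2%) lower in hypertonic KO cells, 30.1% in all. Without all number 4 arrays 2567 were higher and 3289 lower. Counts of list members given below are read beside these counts over all genes. With a change of at least 2-fold, 207 (1.32%) were higher and 523 (3.33%) lower, and 9 and 16 changed at least 4-fold. The 6 KO arrays did not overlap between the media for 7159 genes (45.6%), and 3130 calls (19.9% of genes) held when any 1 KO array was left out. Changes taken within an array number correlated over the 15711 genes at r = 0.886 for numbers 1 and 2, 0.807 for 1 and 4 and 0.793 for 2 and 4, a description over genes, which are not independent. The balance of directions depended on the scaling of the arrays. Gene-level medians were 7.66 to 7.74 in isotonic and 7.53 to 7.57 in hypertonic KO arrays, with no overlap. Of the called genes 42.9% were higher as deposited, 51.9% after quantile normalization and 68.9% after centring each array on its median, which moved the median change of all genes from 0.02 to 0.17. After centring 26.9% of genes were higher and 12.2% lower, and 3940 of the 4734 calls were kept in their direction. Changes near zero therefore have no settled direction, and some list medians given below turned positive after centring: osmolyte genes to 0.09, mTORC1 restraint to 0.12, oxidative phosphorylation to 0.05 and collagens to 0.07.

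In WT cells the same medium gave 619 genes higher (3.94%) and 676 lower (4.3%), 8.24% in all. The median absolute change over all genes was 0.23 in KO and 0.15 in WT cells. Of the genes higher in WT cells, 272 were also higher in KO cells, 43.9% of the WT and 13.4% of the KO genes. Of those lower in WT cells, 493 were also lower in KO cells, 72.9% of the WT and 18.2% of the KO genes. The difference itself, KO minus WT change, was called for 526 genes in the positive direction (3.35%) and 966 in the negative direction (6.15%), 9.5% in all. Of the 4734 genes called in KO cells, 1319 (27.9%) had a called difference. Calls in opposite directions were few: 11 genes rose in KO and fell in WT cells, and 32 fell in KO and rose in WT cells. The WT count of 1295 depended on single arrays. It was 735 when isotonic WT array 1 was left out, 783 for isotonic array 2, 535 for hypertonic array 1 and 635 for hypertonic array 2. The count of 1492 differences was likewise 833 when WT hypertonic array 2 was left out, 994 for KO hypertonic array 1 and 911 for KO hypertonic array 2. With the array number as a block the counts were 2360 for WT cells and 2280 for the difference.

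**Figure D1:**
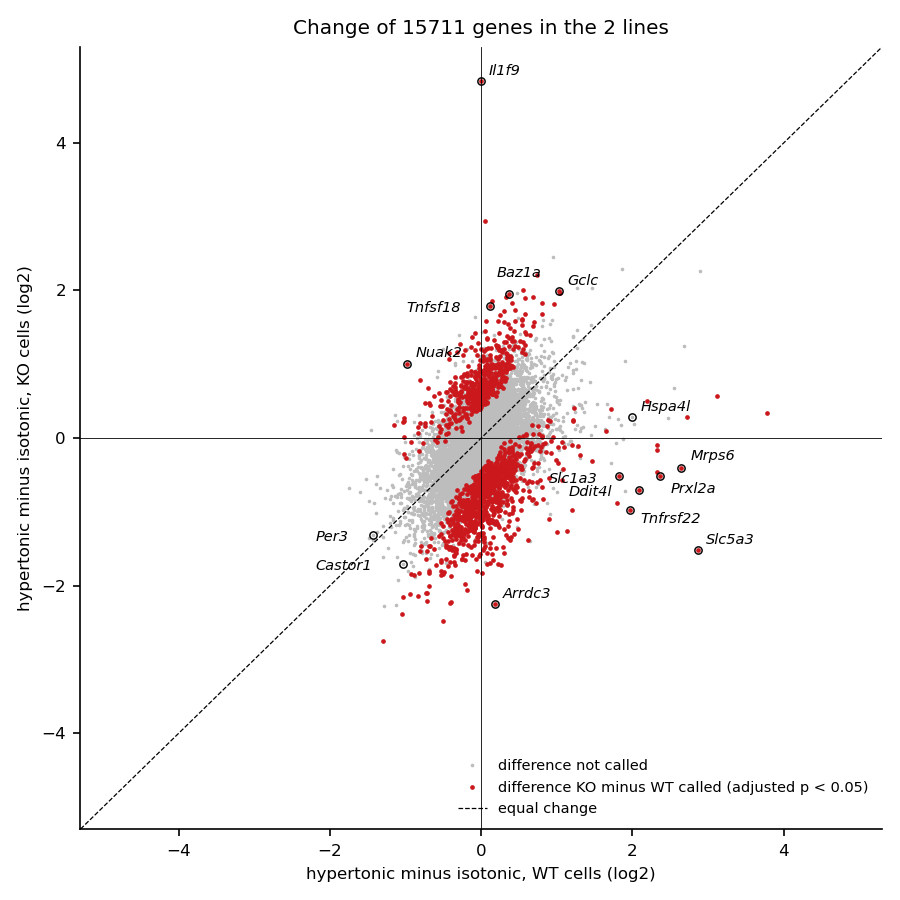
Each point is 1 of 15711 genes, with its hypertonic minus isotonic change in WT cells on the x axis and in KO cells on the y axis, both in log2, and red marks a called difference. Il1f9 stands alone at the top with a fitted KO change of 4.84, and Slc5a3 at the lower right rose by 2.86 in WT and fell by 1.52 in KO cells.

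No osmolyte gene was called higher in KO cells with all arrays in the fit. Slc5a3, the sodium and myo-inositol cotransporter, read 11.67, 11.75 and 11.09 in isotonic KO arrays and 10.19, 10.34 and 9.43 in hypertonic ones. Every hypertonic array lay below every isotonic one, and the gene fell by 1.52 ± 0.29 (limma adjusted p = 0.0009). In WT cells it stood at 8.26, 8.68 and 8.75 in isotonic and at 11.76, 11.63 and 10.88 in hypertonic medium, a rise of 2.86, so the isotonic KO level was near the hypertonic WT level. The difference of the changes was -4.38 ± 0.41 (limma adjusted p = 5.67e-05), the most negative of the named differences.

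Mrps6, a mitochondrial ribosomal protein gene whose annotated start lies 14 bases from that of Slc5a3 on the same strand in RefSeq's promoter table for GRCm38.p6, read 12.18, 12.06 and 11.25 in isotonic and 11.59, 11.54 and 11.13 in hypertonic KO arrays. Isotonic array 4 lay below hypertonic arrays 1 and 2, so the media overlapped. The change of -0.41 ± 0.29 was not called (limma adjusted p = 0.336), but it was called when all number 4 arrays were left out. The WT change was 2.64 and the difference -3.05 ± 0.41 (limma adjusted p = 0.000697). Slc6a12, the betaine transporter, read 6.80, 6.92 and 6.86 in isotonic and 6.93, 7.05 and 7.47 in hypertonic KO arrays, without overlap. Its change of 0.29 ± 0.44, with the error pooled over all groups, was not called, beside a WT rise of 1.69. Slc6a6, the taurine transporter, read 10.58, 10.97 and 9.998 against 10.05, 10.34 and 9.35, with overlap between the media. Its change of -0.60 ± 0.25 (limma adjusted p = 0.0805) passed the threshold with the array number as a block and when isotonic KO array 4, hypertonic KO array 2 or all number 4 arrays were left out.

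Among the remaining osmotic genes, Hspa4l, a chaperone of the HSP110 family, read 6.45, 6.36 and 6.22 in isotonic and 6.66, 6.62 and 6.59 in hypertonic KO arrays. The groups did not overlap, but the change of 0.28 ± 0.38, whose error includes the spread of the other groups, was not called. The WT rise was 2.00. Aqp1, a water channel, read 7.999, 7.85 and 7.74 against 7.90, 7.77 and 7.72, a change of -0.07 ± 0.54 whose sign turned after quantile normalization (0.11), after centring (0.083) and without isotonic KO array 1 (0.0023). Of 16 osmolyte and NFAT5 target genes listed, 11 could be tested in KO cells: Slc5a3 fell, the other 10 did not pass, and the median change was -0.06 beside 0.02 over all genes (0.07 after quantile normalization). The count of 1 fall was 2 with the block, by the Slc6a6 call named above. Without all number 4 arrays 3 of the 11 fell and 1 rose. In WT cells 4 of the same 11 rose, with a median of 0.77. Akr1b3, the aldose reductase gene, was not analysed here.

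**Figure D2:**
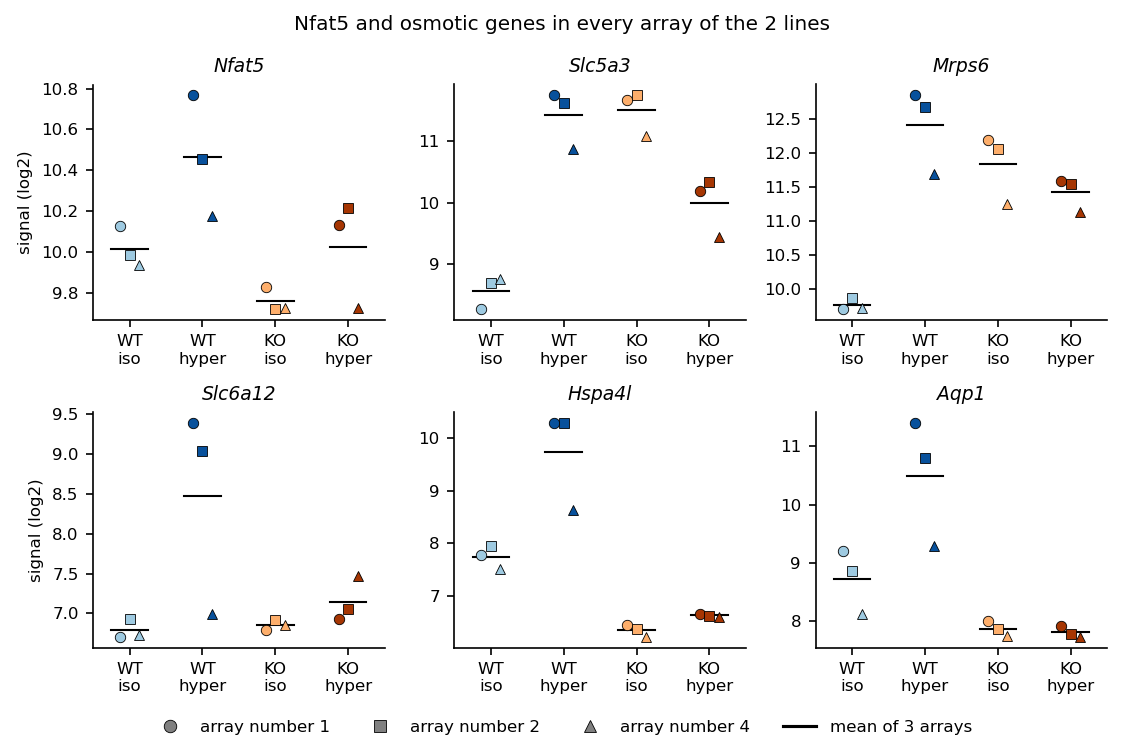
Signal (log2) of Nfat5 and 5 osmotic genes in every WT and KO array of both media, with symbols for array numbers 1, 2 and 4 and a bar for the mean of 3 arrays. Slc5a3 moves up in WT and down in KO cells, and the KO arrays of Hspa4l (6.22 to 6.66) and Aqp1 lie below all WT arrays of the same gene.

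The largest increase in KO cells was that of Il1f9, which encodes interleukin-36 gamma, a cytokine of the interleukin-1 family. It read 5.22, 5.36 and 5.28 in isotonic KO arrays, below the limit of the filter on dim genes (5.86), and 10.04, 10.40 and 9.93 in hypertonic ones. In WT cells it stayed between 4.58 and 4.82 in both media. The fitted KO rise was 4.84 ± 0.14 (limma adjusted p = 7.16e-12) and the fitted difference from WT 4.85 ± 0.19 (limma adjusted p = 1.28e-09). Counted from the limit, the KO rise was at least 4.27, and a WT change below the limit is not resolved.

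Among genes whose KO arrays did not overlap and whose call and size held without any 1 KO array, the next increases were Rbm38 (2.45 ± 0.40), an RNA-binding protein gene induced by p53, Nup210l (2.29 ± 0.20), which resembles a nuclear pore subunit, and Prl2c5 (2.27 ± 0.43), a prolactin family gene with close copies. Prl2c5 rose by 2.89 in WT cells, and with its isotonic KO mean of 5.67 the KO rise was at least 1.97 from the limit. Ptgs2, the inducible cyclooxygenase that starts prostaglandin synthesis, read 9.10, 9.41 and 9.70 in isotonic and 11.67, 11.81 and 11.37 in hypertonic KO arrays. It rose by 2.22 ± 0.27 (limma adjusted p = 2.44e-05) from a lower isotonic level than in WT cells, whose arrays read 11.56 to 12.28 in isotonic medium. The WT change of 0.73 ± 0.27 was not called, and the difference of 1.48 ± 0.38 (limma adjusted p = 0.0229) was lost when KO isotonic array 1, KO hypertonic array 1 or 2, or any of 3 WT arrays was left out. Baz1a, a subunit of an ATP-dependent chromatin remodeller, read 8.08, 8.05 and 8.25 against 10.17, 10.20 and 9.89, and its rise of 1.96 ± 0.12 also exceeded the WT change by 1.59 ± 0.17 (limma adjusted p = 0.000169). Foxa1, a pioneer transcription factor, rose by 1.96 ± 0.33 from 7.81 to 8.72 in isotonic KO arrays to 9.59 to 10.55 in hypertonic ones. Other leading increases were Mia2 (2.04, or at least 1.36 from the limit, below which its isotonic KO arrays lay), Tmem236 (2.01), Tlcd2 (1.96), Atp10d (1.92), a phospholipid flippase subunit, and Tent5c (1.91), which extends poly(A) tails. Nup210l and Mia2 rose in WT cells too, by 1.86 and 1.46.

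**Figure D3:**
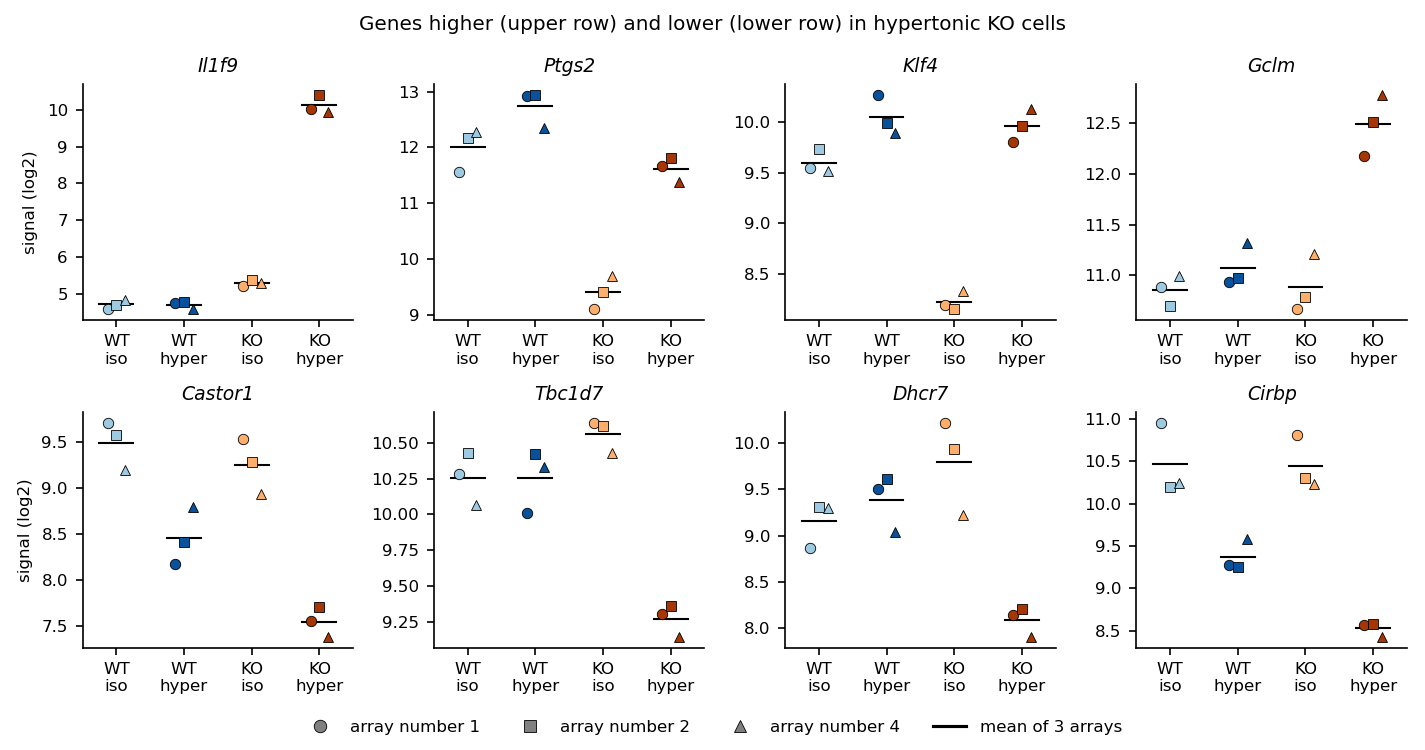
Signal (log2) of 4 genes that rose (upper row) and 4 that fell (lower row) in hypertonic KO cells, by array in WT and KO cells of both media, with bars for means of 3 arrays. In each panel the 3 hypertonic KO arrays lie apart from the 3 isotonic KO arrays, as for Gclm at 12.17 to 12.77 against 10.67 to 11.21.

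Part of the genes controlled by NRF2, a transcription factor that answers oxidative and electrophilic stress, rose in KO cells. Of 28 tested of 29 listed, 11 rose and the other 17 did not pass, with a median change of 0.36 beside 0.02 over all genes. In WT cells 1 of the 28 rose, with a median of 0.12, and 7 had a called positive difference. The rate-limiting step of glutathione synthesis was covered by both of its subunits. Gclc, the catalytic subunit of glutamate-cysteine ligase, read 10.13, 10.21 and 9.42 in isotonic and 11.73, 12.05 and 11.94 in hypertonic KO arrays, a rise of 1.99 ± 0.19 (limma adjusted p = 3.01e-06). Gclm, its modifier subunit, read 10.67, 10.79 and 11.21 against 12.17, 12.51 and 12.77, a rise of 1.59 ± 0.17. Neither gene overlapped between the media. Slc7a11, which imports cystine for the same pathway, read 8.52, 8.10 and 8.90 against 9.05, 9.46 and 10.28, and its change of 1.09 ± 0.59 was not called.

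Hmox1, which degrades heme, read 11.49, 11.21 and 11.04 in isotonic and 12.69, 12.95 and 12.76 in hypertonic KO arrays and rose by 1.55 ± 0.16. Txnrd1, thioredoxin reductase, rose by 0.98 ± 0.16, Ftl1, the ferritin light chain, by 0.83 ± 0.15, and Pgd, an enzyme of the pentose phosphate pathway, by 0.50 ± 0.11. Nqo1, a quinone reductase often used as an NRF2 marker, changed by -0.39 and was not called. All 3 small MAF genes, whose products pair with NRF2 on DNA, rose: Mafk by 1.30 ± 0.14, Maff by 1.12 ± 0.30 and Mafg by 0.95 ± 0.12. Of the 11 calls 8 held without any 1 KO array, and the Maff call was lost without isotonic KO array 2. Differences from WT were called for Gclc (0.96), Gclm (1.38), Hmox1 (1.20), Mafk (1.01), Mafg (0.88) and Txnrd1 (0.77), of which those of Gclc and Txnrd1 were lost when single KO or WT arrays were left out, KO hypertonic array 2 among them.

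Promoters of these genes are shown because several members that rose hold the letters of an antioxidant response element, the site NRF2 and small MAF proteins bind. The letters searched were TGACNNNGC on both strands in the 250 bases before each annotated start, in RefSeq promoters of the build GRCm38.p6. They occur in 3338 of 32851 promoters (10.2%) and in 13.3% of the tested genes that have a promoter in that table, and in 9 of 23 tested NRF2 list members (39.1%). Of the 8 members that rose and have such a promoter, 5 hold them. The same letters occur in 3 of 18 tested sterol genes (16.7%), all 3 among the 8 sterol genes with a promoter there that fell (37.5%). The stretches below run 5′ to 3′ along the strand of the gene, and capitals mark the match, which is a match of letters and not a measured site.
Gclm, chr3:122245378-122245476, plus strand: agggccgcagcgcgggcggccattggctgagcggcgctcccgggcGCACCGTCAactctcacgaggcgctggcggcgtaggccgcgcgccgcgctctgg
Txnrd1, chr10:82859069-82859167, plus strand: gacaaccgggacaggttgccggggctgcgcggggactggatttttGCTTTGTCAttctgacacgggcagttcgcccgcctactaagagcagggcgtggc
Mafg, chr11:120633716-120633797, minus strand: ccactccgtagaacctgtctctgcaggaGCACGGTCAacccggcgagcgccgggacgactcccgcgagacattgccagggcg
Mafk, chr5:139791478-139791535, plus strand: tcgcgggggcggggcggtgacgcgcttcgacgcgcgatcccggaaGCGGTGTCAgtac
Maff, chr15:79346464-79346562, plus strand: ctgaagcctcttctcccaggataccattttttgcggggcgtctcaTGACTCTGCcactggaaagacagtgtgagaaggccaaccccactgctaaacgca

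Part of the immediate early genes, which respond to growth factors and stress within minutes to hours, rose in KO cells. Of 32 tested, 12 rose and the other 20 did not pass, with a median change of 0.59. Without all number 4 arrays 20 rose and 2 fell, and with the array number as a block 13 rose and 1 fell. In WT cells 4 rose, with a median of 0.17, and 5 differences were called. Klf4, a zinc finger factor, read 8.19, 8.15 and 8.33 in isotonic and 9.80, 9.96 and 10.13 in hypertonic KO arrays, a rise of 1.74 ± 0.14 (limma adjusted p = 1.31e-06). Ier5 rose by 1.90 ± 0.26, from 7.66 to 8.35 up to 9.80 to 10.02. Zfp36, which destabilizes cytokine mRNAs, read 8.47, 8.56 and 8.90 against 9.64, 9.94 and 9.92, and its rise of 1.19 ± 0.15 exceeded the WT change by 1.28 ± 0.21 (limma adjusted p = 0.0021). Among the 8 AP-1 genes 6 rose, including Fosl1 (1.22), Jun (1.00), Fosl2 (0.97) and Fos (0.86), with a median of 0.86. The Fos call was lost when isotonic KO array 1 or hypertonic KO array 1 or 2 was left out. Fosl1 rose by 1.26 in WT cells as well. Egr1, by contrast, changed by -0.28 in KO cells and was not called.

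Signalling molecules that cells release or display moved gene by gene. Of 16 tested genes of prostaglandin synthesis and reception, 4 rose: Ptgs2, the prostacyclin receptor Ptgir (0.73 ± 0.16), the receptor Ptger4 (0.83) and Ptges3 (0.33). The Ptger4 call was lost without hypertonic KO array 2 and the Ptges3 call without any of 4 single KO arrays. In the TNF family 5 of 23 rose and 1 fell, Tnfrsf23, beside 12.9% and 17.2% of all genes, with a median of 0.16. In WT cells 4 of the 23 rose, with a median of 0.17. After centring 8 rose in KO cells, beside 26.9% of all genes. Tnfsf18, the GITR ligand, read 5.49, 5.47 and 4.999 in isotonic and 6.87, 7.63 and 6.83 in hypertonic KO arrays, a fitted rise of 1.79 ± 0.24. The isotonic KO arrays and all WT arrays (4.93 to 5.76) lay below the limit of 5.86, from which the KO rise was at least 1.25. Tnfrsf11b, the decoy receptor osteoprotegerin, read 10.15, 10.33 and 9.98 against 11.58, 11.48 and 11.24, a rise of 1.28 ± 0.13. Tnfrsf12a (1.20 ± 0.28) and Tnfsf13b (0.97 ± 0.11, or at least 0.91 from the limit), which encodes the B cell factor BAFF, rose too.

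Among 22 cytokine genes Il6ra (1.12 ± 0.17), Il11 (0.77 ± 0.16) and Il1f9 rose and Il18 fell by 0.95, a call lost when isotonic KO array 4 or hypertonic KO array 2 was left out. These counts were near the 12.9% of all genes that rose and below the 17.2% that fell. Il6 and Il1b changed by 0.43 and 0.24 and were not called. Ccl3, a macrophage-attracting chemokine, read 6.12, 5.97 and 7.001 in isotonic and 8.38, 7.998 and 11.52 in hypertonic KO arrays. It rose by 2.93 ± 0.60 (limma adjusted p = 0.0016) with array 4 far above the other hypertonic arrays, and by 1.82 when hypertonic KO array 4 was left out. Ccl25 (1.00), the other chemokine called among 20, lost its call without isotonic KO array 4 and without hypertonic array 1 or 2. Without all number 4 arrays 5 chemokines and 5 cytokine genes rose, and 1 chemokine and 2 cytokine genes fell. Hbegf, an EGF receptor ligand, rose by 1.25 ± 0.31 while Egfr fell by 0.64 ± 0.17. Fgf10, a growth factor of mesenchymal cells, read 7.58, 7.79 and 6.98 in isotonic and 6.21, 6.44 and 5.90 in hypertonic KO arrays, and fell by 1.27 ± 0.20. It rose by 1.00 in WT cells, and the difference was -2.27 ± 0.28 (limma adjusted p = 0.0004). Plaur, the urokinase receptor, rose by 1.63 ± 0.27, while the metalloprotease inhibitors Reck and Timp3 fell by 0.72 ± 0.20 and 0.52 ± 0.13. The interferon list of 22 genes had a median of -0.39 with 1 call, Oasl1 (0.74 ± 0.17), but 3 also fell with the array number as a block, and 4 rose and 9 fell without all number 4 arrays.

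Cytosolic chaperones rose in part. Of 21 tested of 24 listed, 9 rose and the other 12 did not pass, with a median change of 0.33, and 5 rose in WT cells. Hsph1 read 9.63, 9.93 and 9.85 in isotonic and 10.38, 10.39 and 10.72 in hypertonic KO arrays, a rise of 0.70 ± 0.19 near the WT rise of 0.79. Hsf2, a heat shock transcription factor, rose by 0.90 ± 0.11, Dnajb1, a co-chaperone of HSP70, by 0.62 ± 0.15 and Hsp90aa1 by 0.50 ± 0.10. Hspa1a, the inducible HSP70, read 9.57, 9.32 and 9.41 against 9.62, 9.95 and 9.94, and its rise of 0.40 ± 0.12 was smaller than the WT rise of 1.23, with a difference of -0.83 ± 0.17 (limma adjusted p = 0.0064). The KO call of Hspa1a was lost when isotonic KO array 2, hypertonic KO array 2 or 4 or all number 4 arrays were left out. In the endoplasmic reticulum list, 3 of 24 rose and 2 fell, below the shares over all genes (12.9% and 17.2%). With the array number as a block or without all number 4 arrays 6 rose, and 8 after centring, beside 26.9% of all genes after centring. Dnajb9, a chaperone of that compartment, rose by 1.26 ± 0.10 and the sensor Atf6 by 0.93 ± 0.18, while Xbp1, its companion factor in the unfolded protein response, fell by 0.71 ± 0.18 in KO and by 0.70 in WT cells. Hspa5, the compartment's main chaperone, changed by 0.27 and was not called.

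Targets of p53 changed in both directions. Of 26 tested of 30 listed, 10 rose and 3 fell, with a median change of 0.40, and 6 rose and 1 fell in WT cells. Eda2r, a receptor of the TNF family, read 9.57, 9.42 and 9.32 in isotonic and 11.34, 11.67 and 11.41 in hypertonic KO arrays, a rise of 2.03 ± 0.35. Aen, an apoptosis-enhancing nuclease, rose by 1.36 ± 0.19 and Mdm2, which degrades p53, by 1.20 ± 0.11, from 9.91 to 9.95 up to 10.998 to 11.22. The feedback phosphatase Ppm1d (0.71) and the translesion polymerase Polk (0.91) rose, while Ddb2, a sensor of ultraviolet damage, fell by 1.05 ± 0.14. Mdm2 also rose more than in WT cells, by 0.65 ± 0.16 (limma adjusted p = 0.0171), a difference not called without hypertonic WT array 2. Cdkn1a was not analysed here.

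Autophagy genes changed in KO cells at several steps of the pathway. Of 19 tested, 11 rose and 3 fell, with a median change of 0.28, against 1 and 2 in WT cells, and 4 positive differences were called. The count of 11 was 7 when array 2 of either medium was left out. Ulk1, the kinase that starts autophagy and a target of mTORC1, read 9.86, 9.73 and 9.97 in isotonic and 10.91, 10.94 and 10.71 in hypertonic KO arrays. The groups lay apart, with a rise of 1.00 ± 0.11 (limma adjusted p = 1.22e-05) and a difference from WT of 0.78 ± 0.16 (limma adjusted p = 0.0063). Atg14, part of the lipid kinase complex that Ulk1 acts on, read 8.55, 8.18 and 8.35 against 9.27, 9.38 and 9.36 and rose by 0.98 ± 0.13. Uvrag (0.78), Atg12 (0.70), Gabarapl1 (0.67) and Atg16l1 (0.66), which act in membrane tethering and conjugation, rose too, while Wipi1, which binds the forming membrane, fell by 0.94 ± 0.15 and Atg7, the conjugating enzyme, by 0.66 ± 0.14. Wipi1 also fell in WT cells, by 0.65. Lysosomal enzymes and membrane proteins gave 1 call among 17, Gusb, which fell by 0.37 and lost its call after centring and without isotonic KO array 1 or hypertonic array 4. Of 9 subunits of the lysosomal proton pump, 3 rose, Atp6v0b by 0.81, Atp6v1b2 by 0.80 and Atp6v1a by 0.44, and Atp6v0a1 fell by 0.49.

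Among FOXO targets, genes switched on when insulin signalling is low, 11 of 28 rose and 2 fell, with a median change of 0.31 beside -0.13 in WT cells, where 3 fell and the others did not pass. The count of 11 was 6 when isotonic KO array 1 or 2 was left out and 7 for hypertonic array 4, and 4 fell with the array number as a block. Bcl6, a transcriptional repressor, rose by 1.14 ± 0.19, from 8.07 to 8.42 up to 9.20 to 9.55. Sesn1 and Pik3ip1, which restrain growth signalling, fell by 0.88 ± 0.14 and 0.69 ± 0.17. The list shares Ulk1, Gabarapl1 and Map1lc3b with the autophagy genes and Sesn1 with the p53 targets.

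Genes that restrain mTORC1, the nutrient-sensing kinase complex, split evenly: 5 of 17 rose and 5 fell, with a median of -0.03. Castor1, an arginine sensor that inhibits mTORC1 when arginine is scarce, read 9.53, 9.28 and 8.93 in isotonic and 7.55, 7.70 and 7.38 in hypertonic KO arrays. It fell by 1.70 ± 0.19 (limma adjusted p = 1.44e-05) and by 1.03 in WT cells. Tbc1d7, the third subunit of the TSC complex, read 10.64, 10.62 and 10.43 against 9.31, 9.36 and 9.15, while its WT arrays lay between 10.01 and 10.43 in both media. It fell by 1.29 ± 0.15, and the difference from WT was -1.29 ± 0.22 (limma adjusted p = 0.0026).

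The GATOR1 complex, which shuts off mTORC1 at the lysosome, was split within itself. Nprl3 read 9.61, 9.34 and 9.20 in isotonic and 8.39, 8.17 and 8.39 in hypertonic KO arrays and fell by 1.07 ± 0.14, and Depdc5 fell by 0.62 ± 0.10, each with a called negative difference from WT (-1.15 and -0.69). Nprl2, the remaining subunit, rose by 0.52 ± 0.10 in KO and by 0.82 in WT cells. Akt1s1, the inhibitor PRAS40, rose by 0.78 ± 0.19, and Fnip1, a partner of folliculin, rose by 0.64 ± 0.11 in KO but fell by 0.38 in WT cells. Ddit4l, a relative of REDD1, read 11.54, 11.26 and 10.84 in isotonic and 10.67, 10.62 and 10.25 in hypertonic KO arrays, a change of -0.70 ± 0.42 that was not called beside a WT rise of 2.09. The KO arrays of Ddit4l in both media lay above all 3 hypertonic WT arrays, which read 9.41, 9.11 and 9.51, and the KO change was called without all number 4 arrays and in a fit on the KO groups alone. All 5 falls held without any 1 KO array, whereas 3 genes rose when hypertonic KO array 1 was left out.

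Of 27 amino acid transporters tested, 7 fell and 3 rose, with a median of 0.03, and 5 rose with the array number as a block, after centring or without all number 4 arrays. In WT cells 2 rose and the rest did not pass, with a median of 0.34, and 5 differences were negative and 1 positive. Slc1a5, the main glutamine importer, read 11.47, 11.39 and 11.47 in isotonic and 10.45, 10.48 and 10.26 in hypertonic KO arrays and fell by 1.04 ± 0.18. The leucine and branched-chain carriers Slc43a1 and Slc43a2 fell by 1.11 ± 0.31 and 1.03 ± 0.16. Slc43a2 differed from WT by -1.40 ± 0.23 (limma adjusted p = 0.0021). Slc38a9, an arginine sensor on the lysosome, fell by 0.87 ± 0.17. Slc1a3, a glutamate and aspartate importer, read 11.57, 11.60 and 11.70 against 11.02, 11.17 and 11.12. It fell by 0.52 ± 0.14 in KO cells, which did not pass after centring, and rose by 1.83 in WT cells, a difference of -2.35 ± 0.20 (limma adjusted p = 3.07e-05). Slc3a1 (0.89 ± 0.17), Slc38a3 (0.73) and Slc1a1 (0.62) rose from isotonic means of 6.36, 6.47 and 5.79, the last below the limit, from which Slc1a1 rose by at least 0.55. Slc7a5 and Slc3a2, the light and heavy chains of the main leucine exchanger, changed by -0.19 and 0.20 and were not called. Targets of ATF4, the factor that answers amino acid shortage, gave no call by limma among 31 tested, with 3 higher and 4 lower at an unadjusted p below 0.05, 2 higher and 4 lower with the array number as a block, and 3 higher and 3 lower without all number 4 arrays.

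Circadian clock genes moved on both arms of the feedback loop. Of 17 tested, 6 rose and 1 fell, with a median change of 0.17, and 2 fell with the array number as a block. The activators Arntl and Clock rose by 1.04 ± 0.19 and 0.66 ± 0.15. Among the repressors, Cry1 read 7.51, 7.51 and 7.65 in isotonic and 8.80, 8.81 and 8.72 in hypertonic KO arrays, a rise of 1.22 ± 0.14 that exceeded the WT change by 1.14 ± 0.20 (limma adjusted p = 0.0028). Nr1d2, a nuclear receptor that represses Arntl, rose by 0.93 ± 0.16, with a difference from WT of 0.89 that was lost when hypertonic KO array 2 or isotonic WT array 1 was left out. Per3 read 9.59, 9.31 and 9.31 against 8.31, 8.32 and 7.66 and fell by 1.31 ± 0.22, close to the WT change of -1.42. Per2 changed by -0.18 and was not called. Nfil3 (1.64) and Nr1d1 (1.06) were called higher, the former not without isotonic KO array 2 and the latter not without any 1 of 5 KO arrays.

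Part of the ribosome biogenesis genes rose, in both lines. In KO cells 12 of 37 rose and 2 fell, with a median change of 0.39, in WT cells 6 rose, with a median of 0.43, and the median difference was -0.01. The KO count moved with the setting: 7 rose when isotonic KO array 1, isotonic array 2 or hypertonic array 1 was left out and 5 for isotonic array 4, against 22 with the array number as a block and 25 after centring. The processing factors Gnl3 (0.93 ± 0.20), Bysl (0.86 ± 0.22) and Nop2 (0.84 ± 0.22) rose, while Taf1b, a promoter selectivity subunit for RNA polymerase I, fell by 1.42 ± 0.26, from 8.33 to 8.88 down to 6.89 to 7.35. Cytosolic ribosomal proteins gave 2 rises among 33, with a median of 0.05, led by Rpl30 (0.62 ± 0.13), and 5 after centring.

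Of 36 mitochondrial ribosomal protein genes tested, 8 fell and 1 rose, beside 17.2% of all genes that fell, with a median change of -0.18 beside 0.12 in WT cells, and 5 differences were called, all negative. The count of 8 was 5 when hypertonic KO array 2 was left out or arrays were centred (beside 12.2% of all genes that fell after centring), and 16 without all number 4 arrays. Mrpl10 read 11.69, 11.66 and 11.36 in isotonic and 10.67, 10.71 and 10.75 in hypertonic KO arrays and fell by 0.85 ± 0.10 (limma adjusted p = 2.05e-05), with a WT change of -0.07. Mrps10, Mrpl37 and Mrpl11 fell by 0.72 ± 0.13, 0.68 ± 0.15 and 0.66 ± 0.12. Tfb1m, which methylates the ribosomal RNA of mitochondria, read 9.49, 9.57 and 9.51 against 7.64, 7.46 and 7.18, and fell by 2.10 ± 0.23. In oxidative phosphorylation 3 of 33 fell, with a median of -0.10, and 6 with the array number as a block and 7 after cyclic loess, led by the complex I subunit Ndufs3 (-0.51 ± 0.09).

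Part of the sterol synthesis genes fell in KO cells. Of 22 tested of 27 listed, 10 fell, 1 rose and 11 did not pass, with a median change of -0.76, and 9 of the 17 synthesis enzymes were among those that fell. In WT cells 1 of the 22 fell, with a median of -0.40, and 1 difference was called. Dhcr7, which makes cholesterol from its last precursor, read 10.22, 9.94 and 9.23 in isotonic and 8.14, 8.21 and 7.91 in hypertonic KO arrays. It fell by 1.71 ± 0.22 (limma adjusted p = 3.76e-05), and the difference from WT was -1.94 ± 0.31 (limma adjusted p = 0.0017). Mvk, mevalonate kinase, read 10.76, 10.56 and 9.83 against 8.93, 8.95 and 8.40, and fell by 1.62 ± 0.23. Hmgcs1, an early enzyme of the mevalonate pathway, read 12.17, 12.04 and 11.03 against 10.50, 10.52 and 10.01, and fell by 1.40 ± 0.30. Array 4 was the lowest of its medium in each of these genes, and no medium overlapped the other.

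The transporter Stard4, which carries sterol between membranes, fell by 1.27 ± 0.30 and Fdft1, squalene synthase, by 1.07 ± 0.20, while Npc1l1, a sterol importer, rose by 0.94 ± 0.15. Idi1 read 11.46, 11.58 and 10.62 against 10.11, 10.48 and 9.13, and its change of -1.31 ± 0.52 (limma adjusted p = 0.068) was called with the array number as a block and when isotonic KO array 4 or all number 4 arrays were left out. The count of 10 falls was 5 when isotonic KO array 1 was left out, 6 for isotonic array 2, 6 for hypertonic array 4, 6 after centring and 17 without all number 4 arrays, while 5 of the 10 calls held without any 1 KO array. The letters TCACNCCAC, those of a sterol regulatory element, occur on either strand in 346 of 32851 RefSeq promoters (1.05%) over the same 250 bases and in 1 of 18 tested sterol genes with a promoter in that table. That gene is Hmgcs1, shown because it carries both the letters and a called fall, with capitals marking the match.
Hmgcs1, chr13:119690169-119690267, plus strand, GRCm38.p6: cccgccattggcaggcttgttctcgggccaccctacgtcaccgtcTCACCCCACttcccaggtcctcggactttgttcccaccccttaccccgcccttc

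**Figure D4:**
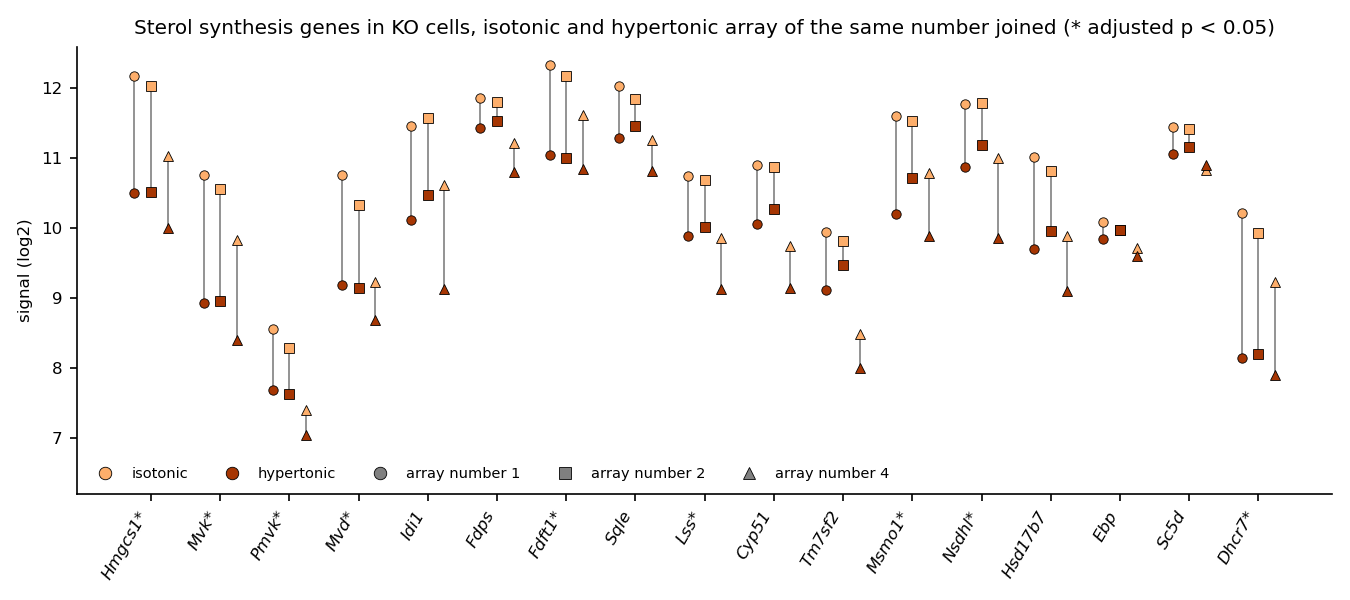
Signal (log2) of the 17 tested sterol synthesis genes in KO cells, with a line joining the isotonic (light) and hypertonic (dark) array of each number and an asterisk for adjusted p below 0.05. For Dhcr7, Mvk and Hmgcs1 each of the 3 lines runs downwards, and array 4 starts from the lowest level.

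Other lipid genes changed one by one. Of 17 fatty acid synthesis genes 3 fell and 2 rose, near the shares over all genes (17.2% and 12.9%), with a median of -0.28. The falls numbered 7 with the array number as a block, 5 without isotonic KO array 4, 9 without all number 4 arrays and 1 after centring. Gpam, which starts glycerolipid synthesis, fell by 0.73 ± 0.12 and Fads1, a desaturase, by 0.48 ± 0.13, a call lost after centring, while Me1, malic enzyme, rose by 0.57 ± 0.10. Dgat1 and Dgat2, the enzymes that complete triglycerides, fell by 1.00 ± 0.15 and 0.64 ± 0.15. Lpl, lipoprotein lipase, read 9.20, 9.16 and 8.58 in isotonic and 10.67, 10.49 and 10.54 in hypertonic KO arrays, a rise of 1.58 ± 0.13, while WT arrays read 5.52 to 5.64 in both media, below the limit of 5.86. In the glycolysis and hypoxia list Ndrg1 fell by 1.57 ± 0.27 and Pfkm, the muscle form of phosphofructokinase, by 1.00 ± 0.13. Ndrg1 differed from WT by -1.55 ± 0.38 (limma adjusted p = 0.0197), and that difference was not called when isotonic KO array 1 or 2 was left out.

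The leading decreases in KO cells came from several processes. Senp8, which removes NEDD8 from proteins, read 7.62, 7.31 and 7.73 in isotonic and 5.18, 4.87 and 5.15 in hypertonic KO arrays, the latter below 5.86. The fitted change was -2.49 ± 0.22 (limma adjusted p = 2.05e-06), and counted from that limit it fell by at least 1.70, so its place among the decreases is not settled, beside a WT change of -0.51 that was not called. Tmem175, a lysosomal ion channel, read 10.31, 10.23 and 10.47 against 8.05, 8.10 and 7.71, and fell by 2.39 ± 0.22 beside a WT change of -1.05. Arrdc3, an alpha-arrestin that sends receptors to degradation, read 10.66, 10.46 and 10.12 against 8.01, 7.74 and 8.74, and fell by 2.25 ± 0.28 with a difference from WT of -2.43 ± 0.40 (limma adjusted p = 0.0021). Cbr4, a mitochondrial reductase, fell by 2.24 ± 0.15 and Rfesd, a Rieske iron-sulfur protein, by 2.06 ± 0.15, and neither WT change was called.

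Prpsap2, a regulator of nucleotide precursor synthesis, read 9.995, 9.97 and 10.20 in isotonic and 7.82, 8.04 and 7.85 in hypertonic KO arrays. It fell by 2.15 ± 0.15 and by 1.03 in WT cells. Inha, the inhibin alpha subunit, fell by 2.12 ± 0.18 and Cc2d2a, a protein of the ciliary transition zone, by 2.00 ± 0.20. Cirbp, the cold-inducible RNA-binding protein, read 10.81, 10.31 and 10.23 against 8.57, 8.58 and 8.43, and fell by 1.92 ± 0.23 beside a WT change of -1.09. The remaining leading decreases were Tmem53 (-2.27), Cstad (-2.27), Lrrc61 (-2.22), Slc16a9 (-1.98, or -0.97 as the mean of its probe sets), a monocarboxylate transporter, and Tvp23a (-1.88).

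Growth and structural genes differed from list to list. In DNA replication 7 of 39 fell and 1 rose, with a median of -0.19, near the share of all genes that fell, and 2 fell when isotonic KO array 2 was left out, 3 for hypertonic array 4 and 4 after centring. Tk1, thymidine kinase, read 9.82, 10.34 and 9.59 in isotonic and 8.72, 8.90 and 8.27 in hypertonic KO arrays and fell by 1.29 ± 0.23. Cdc25a, a phosphatase that drives S phase entry, rose by 0.63 ± 0.12. In mitosis 4 of 38 fell, below the 17.2% of all genes, with a median of -0.26. That count was 1 when isotonic KO array 2 was left out, 2 for hypertonic array 2 or 4 and 9 with the array number as a block. Without all number 4 arrays 16 fell and 2 rose. Of 22 actin and SRF target genes 6 fell, beside 17.2% of all genes, led by Tgfb1i1 (-0.80 ± 0.13). That count was 3 when hypertonic KO array 4 was left out and 2 after centring, where 12.2% of all genes fell. Histones gave 1 rise and 1 fall among 14 in KO cells but 7 rises in WT cells, with medians of 0.06 and 0.62, and 5 fell in KO cells without all number 4 arrays. H1f10, a linker histone, fell by 0.82 ± 0.16 in KO and rose by 0.82 in WT cells.

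Collagens and their enzymes gave 1 rise and 1 fall among 34, with a median of -0.07, and 2 rises and 3 falls without all number 4 arrays. Matrix glycoproteins and proteoglycans gave no call by limma among 30, with 1 higher and 1 lower at an unadjusted p below 0.05 2 lower with the array number as a block and 3 lower without all number 4 arrays. Ion transport genes of cell volume control gave 3 rises and 3 falls among 26, no more than the shares over all genes (12.9% and 17.2%). After centring they gave 6 rises and 2 falls, below the 26.9% and 12.2% of all genes. Without all number 4 arrays 6 rose and 4 fell. Sgk1, a kinase that raises sodium transport, rose by 1.07 ± 0.17 and Oxsr1, a kinase that switches chloride cotransporters, by 0.53 ± 0.13. Within the volume-regulated anion channel the essential subunit Lrrc8a rose by 0.65 ± 0.13 while Lrrc8e fell by 0.51 ± 0.11. Slc12a2, the cotransporter that brings in ions after shrinkage, changed by -0.35 and was not called. Of 28 splicing factors 4 rose, led by Srsf4 (0.77 ± 0.11), and 2 fell, beside 12.9% and 17.2% of all genes. Without all number 4 arrays 8 rose, and 14 after centring, beside 26.9% of all genes after centring. Epha4, an ephrin receptor, rose by 1.37 ± 0.20 and Robo1, a Slit receptor, fell by 0.84 ± 0.09, and Mcam, an adhesion molecule, rose by 1.68 ± 0.22.

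**Figure D5:**
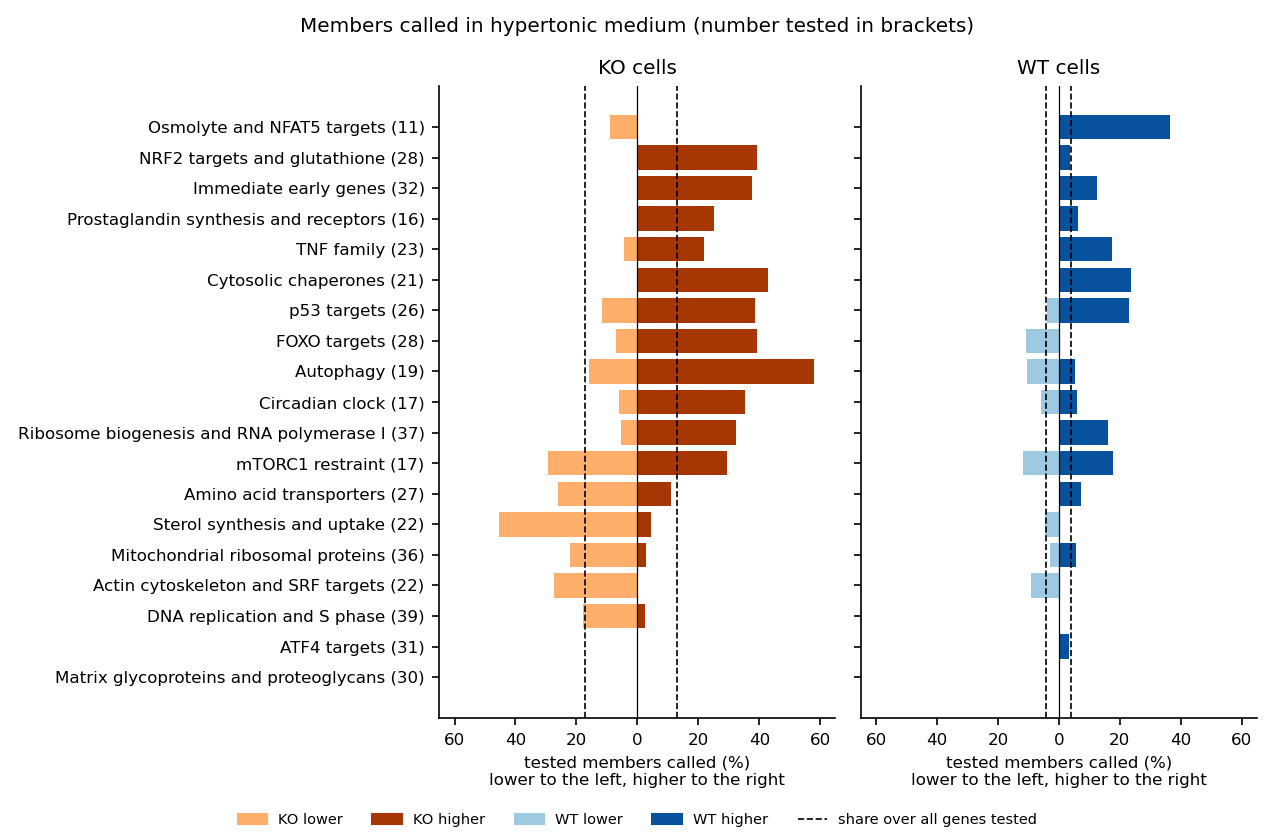
Percentage of tested members called lower (bars to the left) or higher (bars to the right) in hypertonic medium for 19 gene lists, with KO cells in the left panel and WT cells in the right. Dashed lines mark the percentage over all genes, 17.2% lower and 12.9% higher in KO, 4.3% and 3.94% in WT, and the osmolyte bar points right in WT cells and left in KO cells.

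The genes whose response differed most between the lines fell into both directions. Beside Il1f9, Baz1a, Tnfsf18 and Tnfrsf11b, the positive differences were led by Nuak2 (1.99 ± 0.29), a stress kinase that rose by 1.01 in KO and fell by 0.98 in WT cells, Plcxd2 (1.72 ± 0.22), Tfcp2l1 (1.59 ± 0.15) and Epb41l5 (1.57 ± 0.25). Nuak2 read 7.99, 7.77 and 8.15 in isotonic and 8.93, 9.02 and 8.99 in hypertonic KO arrays, still below all WT arrays, which read 9.76 to 11.19. Tfcp2l1 also moved in opposite directions, up by 0.78 in KO and down by 0.81 in WT cells. Beside Slc5a3, Mrps6, Ddit4l and Arrdc3, the negative differences were led by 2 neighbouring decoy receptors of the TNF family.

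Tnfrsf22 read 9.25, 9.35 and 8.80 in isotonic and 8.15, 8.23 and 8.09 in hypertonic KO arrays, a change of -0.98 ± 0.36 (limma adjusted p = 0.0512), beside a WT rise of 1.96. Its KO change passed with the array number as a block, after cyclic loess, with the stricter filter on dim genes, in a fit on the KO groups alone and when isotonic KO array 4 or all number 4 arrays were left out. Tnfrsf23 read 10.41, 10.12 and 10.17 against 9.37, 9.39 and 9.31, and its fall of 0.88 ± 0.31 (limma adjusted p = 0.0457) was lost when any 1 KO array was left out, after quantile normalization and after centring, beside a WT rise of 1.79. The 2 differences were -2.94 ± 0.51 and -2.66 ± 0.44 (limma adjusted p = 0.0028 and 0.0022). Prxl2a and Prrg4 rose by 2.37 and 3.12 in WT cells and changed by -0.52 and 0.57 in KO cells without a call, and the Prrg4 change was called with the array number as a block.

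Markers of other cell types were read in the same arrays. The macrophage and leukocyte markers, 8 tested of 10, averaged 6.75 to 7.01 in isotonic and 6.92 to 7.16 in hypertonic KO arrays, with Ptprc and Adgre1 below the limit of 5.86, and only Itgam rose (1.18 ± 0.22), as in WT cells (0.83). Endothelial markers, 6 tested, averaged 6.28 to 6.68 and 6.67 to 6.94, and 2 of them rose, Pecam1 by 0.47 and Esam by 0.31, neither of them without isotonic KO array 2. Epithelial markers averaged 6.64 to 7.02 and 6.74 to 6.92 (Cdh1 fell by 0.86, not without isotonic KO array 1), neural ones 6.72 to 7.10 and 6.59 to 7.04, and muscle ones 6.65 to 6.95 and 6.59 to 6.82. Adipocyte markers averaged 7.67 to 8.35 in isotonic and 7.84 to 8.60 in hypertonic KO arrays, above 6.61 to 6.77 in WT arrays, and Fabp4 rose by 0.80, a call lost without isotonic KO array 2 or 4 or hypertonic array 1. The part of these levels in the changes of Il1f9, Ccl3, Lpl and the other genes above was not tested, and in such bulk RNA fewer cells of a type and less RNA per cell cannot be told apart. The labels do not say whether arrays of a group came from separate cultures, so the p-values measure the spread between these arrays, which may be technical.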

How the data were processed

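Total RNA was hybridised to Affymetrix arrays, and the values deposited by the authors are signals in log2 after RMA in R 2.11.1, per the submitters' processing notes. No genome build is named in the sources. Of 34760 probe sets 21640 name 1 gene. Where several named the same gene, the 1 with the highest mean was kept, which gave 19937 genes. Of these, 15711 with a highest group mean over 5.86, the 30th percentile of all values, were tested. Probe sets naming several genes (1321) or none (11799) were fitted apart, and of 8512 tested 338 were higher and 360 lower in hypertonic KO cells.

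limma 3.58.1 in R 4.3.3 fitted a mean for each of 6 groups to all 18 arrays (12 residual and 3.29 prior degrees of freedom), with Benjamini-Hochberg adjustment over all tested genes in each contrast. KO and WT comparisons share no arrays. Whether array numbers pair the samples was checked on deviations from group means. KO arrays of the same number correlated at r = 0.567, 0.494 and 0.719, so the numbers pair the arrays within that line. KO and WT arrays of the same number, those with Torin1 included, correlated less, at r = 0.094 to 0.414. The main fit leaves the pairing out, and every result was also fitted with the number as a block. That block gives both lines the same number effect, which these lower correlations hardly bear out. With 3 arrays per group, their number limits the precision. On simulated data for the KO comparison with 15711 genes, 81 of 100 genes changed by 1 log2 and 94 of 100 changed by 2 were recovered, and 10 of 185 calls were false. Only those genes were changed, and the simulated noise had no pairing by array number, so these rates need not hold for the real arrays.

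The members and gene lists were chosen with earlier results of these data known, so list counts and medians are descriptions with no test. Genes were named by rule, leaving out gene models, small RNAs and multi-copy families: the 15 largest called increases and decreases whose KO arrays do not overlap and whose call and size hold without any 1 KO array, the 8 largest differences each way that hold likewise, up to 4 such members of each list, and fixed osmotic genes. Not all are printed, and other list members are examples picked after their values were seen. Alternatives were quantile normalization, median centring, cyclic loess, other filters, averaging all probe sets of a gene, a trended and robust prior, fits on the groups of a contrast alone, the block, and each array and all number 4 arrays left out. Promoters are RefSeq's for GRCm38.p6, matched by symbol for 12343 tested genes.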

Additional observations from a re-analysis of the deposited data

Results flagged for a closer look

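The difference between the lines in the response to hypertonic medium was tested directly for every gene, and the 16 named genes below had a called difference that held without any 1 of the 12 arrays. Values are KO minus WT change in log2. The response was more positive in KO cells for Il1f9 (4.85), Nuak2 (1.99), Plcxd2 (1.72), Tnfsf18 (1.67), Tfcp2l1 (1.59), Baz1a (1.59), Epb41l5 (1.57) and Tnfrsf11b (1.56). It was more negative for Slc5a3 (-4.38), Mrps6 (-3.05), Tnfrsf22 (-2.94), Prxl2a (-2.89), Ddit4l (-2.79), Tnfrsf23 (-2.66), Prrg4 (-2.55) and Arrdc3 (-2.43). Il1f9 and Tnfsf18 lay below the limit of 5.86 in every WT and isotonic KO array, so the sizes of their differences are fitted values. Groups of 3 arrays are too small to look for single outlying arrays.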

How the results depend on the processing

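Of the named-gene results, 154 of 167 kept their direction and their side of the threshold under every alternative, and 10 of the other 13 are given above. The remaining falls, of Cnn2 (-0.40), Psma6 (-0.33) and Plxnd1 (-0.48), did not pass after centring, at -0.25, -0.18 and -0.33 (limma adjusted p = 0.0536, 0.1233 and 0.0604). The KO count of 4734 calls stayed within 1.5 times under every alternative run, and with the array number as a block 4727 of the 4734 calls were kept. Genes higher in KO cells numbered 4233 after centring on medians against 2030. In WT cells the count of 1295 was 267 in a fit on the WT groups alone, 2360 with the block and 3333 without number 4, and from 535 to 1831 with single arrays left out. The count of 1492 differences was 2280 with the block and 2807 without number 4, and from 833 to 1749 with single arrays left out. Aqp1 reversed its uncalled KO change to 0.11 after quantile normalization and 0.083 after centring, and it ranged from -0.13 to 0.0023 with single KO arrays left out. The causes were not tested. Among the 151 genes named by rule, the replicate block added 3 KO calls, Tnfrsf22, Prrg4 and Slc6a6, and lost none. It lost no called difference and added 17 (limma adjusted p from 0.0033 to 0.0489): Rbm38, Mia2, Foxa1, Cstad, Cirbp, Mvk, Stard4, Dnajb1, Il6ra, Tnfrsf12a, Fstl3, Plaur, Tk1, Slc43a1, Slc3a1, Aqp1 and Hspa4l. Arrays have no read depth, and levels near 5.86 limit the size of changes.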

Other observations

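Several gene groups that the lists did not cover were read after their values had been seen, so their counts carry no test and are descriptions only. Genes of the primary cilium, the sensory projection built on the basal body, were mostly lower in hypertonic KO cells. Of 77 tested of 82 named, 45 fell and 2 rose, beside 17.2% and 12.9% of all genes. The median change was -0.54 beside 0.02 over all genes. In WT cells 9 fell and 2 rose, beside 4.3% and 3.94% of all genes, with a median of -0.17. A difference was called for 15, all negative, beside 6.15% of all genes. The BBSome and its chaperonins, which sort membrane proteins into the cilium, gave 8 falls among 11 (median -0.84), the transition zone at its base 12 falls and 1 rise among 19, and intraflagellar transport with its motors 17 falls and 1 rise among 30. Cc2d2a fell by 2.00, followed by Ttc30b (-1.68 ± 0.39), Ift81 (-1.59), Mks1 (-1.59), Tctn3 (-1.45), Invs (-1.37), Cep41 (-1.33), Bbs7 (-1.25) and Wdr19 (-1.23). Hypertonic KO arrays 1 and 2 of Ttc30b read 5.57 and 5.66, below the limit of 5.86, and array 4 read 6.98. Its fall is therefore a fitted value and its place in this order is not settled. The count of falls ranged from 42 to 46 when single KO arrays were left out and was 41 after centring, where 12.2% of all genes fell.

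MicroRNA genes of the imprinted cluster between Meg3 and Dio3 were lower in both lines. Only 30 of 61 named were tested. The filter keeps a gene whose highest group mean passes 5.86, so members dim in hypertonic medium could enter through an isotonic group. That tilts the counts and medians of the tested members towards falls. In KO cells 27 of 30 tested fell, beside 17.2% of all genes, with a median of -1.05. In WT cells 12 fell, beside 4.3% of all genes, with a median of -0.51. A difference was called for 10, all negative, beside 6.15% of all genes. Mir377 (-2.75), Mir376b (-2.21), Mir300 (-2.14) and Mir380 (-2.10) led in KO cells. Hypertonic arrays of both lines lay below 5.86 for Mir376b, Mir380, Mir411, Mir543, Mir496a, Mir541 and Mir154. Counted from that limit, Mir376b and Mir380 fell by at least 1.36 and 1.13 in KO cells. Falls are not resolved below the limit, so the medians of the 2 lines and the differences of such members are fitted values. These probe sets can read the host transcript as well as the precursor. The long RNAs Rian and Meg3 of the same cluster fell by 1.23 and 0.53 in KO and by 0.75 and 0.80 in WT cells.

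Among ubiquitin-specific proteases, enzymes that remove ubiquitin, 17 of 47 tested rose and 7 fell in KO cells, beside 12.9% and 17.2% of all genes. The median was 0.20, and 1 rose in WT cells, beside 3.94% of all genes. Usp31 (1.49) and Usp53 (1.34) rose most and Usp40 fell by 1.06. Centring gave 24 rises and 2 falls, beside 26.9% and 12.2% of all genes, and single arrays left out gave 12 to 18 rises.

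Genes that rose in KO cells were longer than the rest. Their median length was 27.9 kb, against 20.5 kb for genes that fell, 18.9 kb for genes not called and 20.3 kb for all tested. In WT cells the order was turned, with 20.1 kb for genes that rose and 26.4 kb for genes that fell. With genes in 5 equal bins of length, the percentage that rose in KO cells was 7.8, 11.6, 13.3, 16.2 and 15.7 from the shortest to the longest genes, and the percentage that fell was 13.3, 18.9, 20.3, 19.5 and 14.1. Genes are not independent replicates, and the cause was not tested.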
